A study of Mus musculus with 13 samples.

Results

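Epididymal fat and prostate tumour of TRAMP mice labelled as lacking p62 in adipocytes were set side by side, library against library, to describe which stromal and inflammatory genes both tissues expressed alike and which genes still parted them. The libraries were those with the genotype TRAMP+/p62Adipo, 3 of fat and 3 of tumour, 6 of the 13 in the series, and genes were the 22615 symbols that occur a single time in both deposited tables. These were C57BL/6 animals aged 30 to 35 weeks, fed a regular diet. The description of these mice is TRAMP+;p62aP2KO, where aP2 is the older name of Fabp4, so the deletion was to fall in cells with an active Fabp4 promoter, a gene also expressed in some macrophages and capillary endothelium. Mice labelled wild type, TRAMP+;p62f/f, gave 3 fat and 4 tumour libraries, and all mice carried the TRAMP transgene.

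White fat stores triglyceride in adipocytes, which share the tissue with capillaries, fibroblasts and macrophages, and stressed fat gathers macrophages that take up lipid. In TRAMP mice a probasin promoter drives the SV40 early region in prostate epithelium, and the tumours that follow hold luminal-like epithelium, smooth muscle, vessels and immune cells. p62, the product of Sqstm1, is an autophagy receptor and signalling scaffold, and the study asks how its loss in fat bears on fat and tumour metabolism.

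The fat table holds FPKM-like values and the tumour table raw counts, so tumour counts were divided by exon length and both were rescaled to transcripts per 1000000 (TPM) over the same genes. The gap of a gene is its mean log2(TPM + 1) in fat minus that in tumour. A gene was called higher in a tissue when its 3 values there all lay above the 3 of the other tissue and the gap was at least 2, which is 4-fold. It was counted as shared when all 6 libraries had at least 10 TPM and the gap was under 1, which is 2-fold. The tables were made and normalized separately, so tissue and table cannot be told apart and no p-value is given for the gaps.

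The libraries were checked first. The knockout-labelled tumours held 2.01e+07, 3.25e+07 and 2.26e+07 counts, and steps in the low fat values corresponded to roughly 8.73, 23.1 and 7.55 times 1000000 reads in fat libraries 1 to 3. Sqstm1 (chromosome 11, 50199366 to 50210827, mm10, minus strand) stood at 10.3, 126 and 6.49 TPM in knockout-labelled fat 1 to 3 and at 8.58, 208.5 and 21.8 TPM in knockout-labelled tumour 1 to 3. Both libraries numbered 2 were high against the rest of their group. In fat this went against the label. The deletion was to fall in cells with an active Fabp4 promoter, so the label sets no low level for tumour. Below, "knockout" means libraries so labelled. The wild-type-labelled libraries numbered 2 went the other way, with 4.32 TPM in fat and 6.55 TPM in tumour against 116 to 218 TPM in the rest. Tumour 2 also had more summed TPM of macrophage genes (7089 against 1796 and 1430), of fibroblast genes (8504 against 2427 and 1775) and of adipocyte genes (4062 against 990.1 and 544) than tumours 1 and 3. In tumour 1, seminal vesicle genes made up 19.1% of all TPM, against 0.00456% and 0.107% in tumours 2 and 3. Fat 2 had the most neuroendocrine RNA (462 TPM against 123 and 88.1), and fat 3 the least cell cycle RNA (212.5 TPM against 913 and 986). The part of these differences in the results was not tested. List counts that move by over 1.5 times without 1 library are given with it, apart from counts of 0 to 2 that moved by 1.

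Each tissue carried the markers of its label. Fat libraries summed to 32170 to 55990 TPM over the 23 adipocyte genes and tumours to 544 to 4062 TPM. The 16 genes of epithelial adhesion summed to 112 to 318 TPM in fat and 3918 to 4388 TPM in tumours. Spearman correlations of gene levels were 0.901 to 0.956 between libraries of the same tissue and 0.607 to 0.670 between tissues, as a description over genes that share library and table.

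Of 15162 genes with a mean of at least 1 TPM in either tissue, 1357 were called higher in fat (8.95%) and 1568 higher in tumour (10.3%), and 4261 were counted as shared (28.1%). The 3 values of a tissue lay apart from the 3 of the other, at any gap, in 60.9% of genes. The median gap of all genes was -0.16, so a list median near this value is no gap. Centring each library on its median moved the median of all genes to 0.05 and TMM factors moved it to -0.04. Without the minimum gene length of 300 bases it fell to -1.58, and the higher-in-fat share of all calls went from 46.4% to 7.3%. The gap also moved with gene length, from a median of -0.54 in genes of 1690 to 2530 bases to 0.75 in genes of at least 8765 bases. Most of the calls were also made in the wild-type-labelled libraries: 1082 of the genes called higher in fat (79.7% of these, and 63.6% of the 1700 called there), and 1100 of those called higher in tumour (70.2%, and 63% of 1747). A call in the opposite direction was made for 0 genes.

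**Figure D1:**
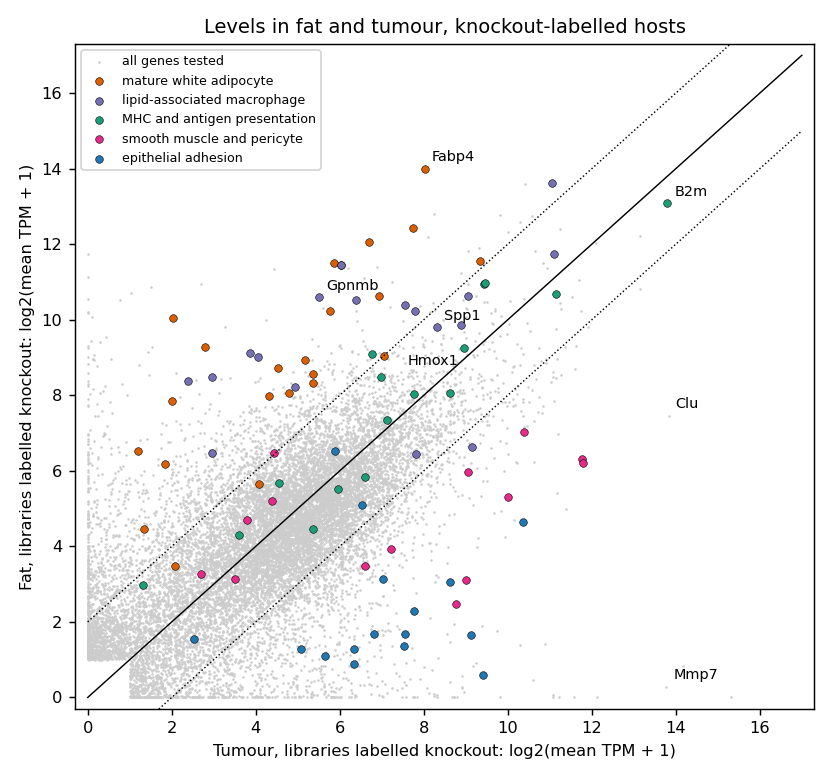
Mean level of every gene tested in the 3 knockout-labelled tumours (x axis) and the 3 knockout-labelled fat libraries (y axis), both as log2(mean TPM + 1). The solid line marks equal levels and the dotted lines a log2 difference of 2. Most adipocyte and lipid-associated macrophage genes lie above the upper line, adhesion and contractile genes mostly below the lower line, and antigen presentation genes mostly between the lines.

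Among the 219 genes of the 14 stromal and inflammatory lists that could be compared, 50 were shared, 48 were called higher in fat, 22 higher in tumour, and 99 met neither rule. With each of the 6 libraries left out in turn, 27 of the 50 stayed shared every time, and 32 of the 48 and 21 of the 22 kept their call every time. Of the 131 with at least 10 TPM in all 6 libraries, 38.2% were shared, against 62% of the 6869 such genes in the whole table. These shares are a description without a test. Over all genes, 8.95% were called higher in fat, 10.3% in tumour and 28.1% were shared, the background for the lists below. Without the minimum gene length only 2 of the 30 lists had a median of at least 1 to the side of fat. In bulk tissue, fewer cells of a type and less RNA per cell cannot be told apart.

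Of the marker genes, Fabp4 and Gpnmb parted to the side of fat, Clu to the side of tumour, and Spp1 and Hmox1 overlapped. Fabp4, the fatty acid binding protein of adipocytes (chromosome 3, 10204088 to 10208576, minus strand), stood at 17250, 10990 and 20850 TPM in fat 1 to 3 and at 152, 571 and 53.0 TPM in tumour 1 to 3. Every fat library lay far above every tumour, and the gap was 6.56. Tumour 2, the highest of the tumours for Fabp4, was also the highest for the adipocyte list.

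Gpnmb, a membrane glycoprotein of lipid-laden macrophages (chromosome 6, 49036546 to 49070929, plus strand), stood at 1961, 2124 and 596 TPM in fat and at 45.2, 63.0 and 24.3 TPM in tumour. The groups did not overlap, and the gap was 5.01. In wild-type-labelled fat it was at 20.9, 943 and 37.2 TPM, highest in library 2, which had low Sqstm1. In knockout-labelled fat Gpnmb was also highest in library 2, which had high Sqstm1 (126 TPM). A relation between these genes was not tested. Wild-type-labelled tumours held 3.04 to 12.98 TPM of Gpnmb, below all 3 knockout-labelled tumours.

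Spp1, which encodes the secreted phosphoprotein osteopontin (chromosome 5, 104435118 to 104441050, plus strand), stood at 2387, 231 and 46.1 TPM in fat and at 29.4, 791 and 129 TPM in tumour. Both tissues spanned more than an order of magnitude and overlapped, and the gap of 1.02 was smaller than the spread within either tissue. Without fat 1 the gap was -0.48, and without tumour 2 it was 2.24. Spp1 was highest in fat 1, which also had the most macrophage RNA of the fat libraries, and in tumour 2, which had the most of the tumours.

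Hmox1, heme oxygenase 1, which breaks down heme (chromosome 8, 75093621 to 75100589, plus strand), stood at 564, 243 and 368 TPM in fat and at 106, 375 and 42.2 TPM in tumour. Only tumour 2 reached into the range of fat, and the gap was 1.62. Without tumour 2 the gap was 2.45 and Hmox1 was called higher in fat, as it also was without both libraries numbered 2 (2.75).

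Clu, which encodes the secreted chaperone clusterin (chromosome 14, 65968483 to 65981547, plus strand), stood at 123, 116 and 287 TPM in fat and at 15930, 11510 and 16130 TPM in tumour. All tumours lay above all fat libraries, and the gap was -6.48. Wild-type-labelled tumours ranged from 1166 to 5229 TPM, below every knockout-labelled tumour, whereas wild-type-labelled fat at 138 to 174.5 TPM lay within the range of knockout-labelled fat. The difference between the gaps of the 2 genotypes was -2.54 (SE 0.68), with a limma adjusted p of 0.206 that misses the threshold.

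**Figure D2:**
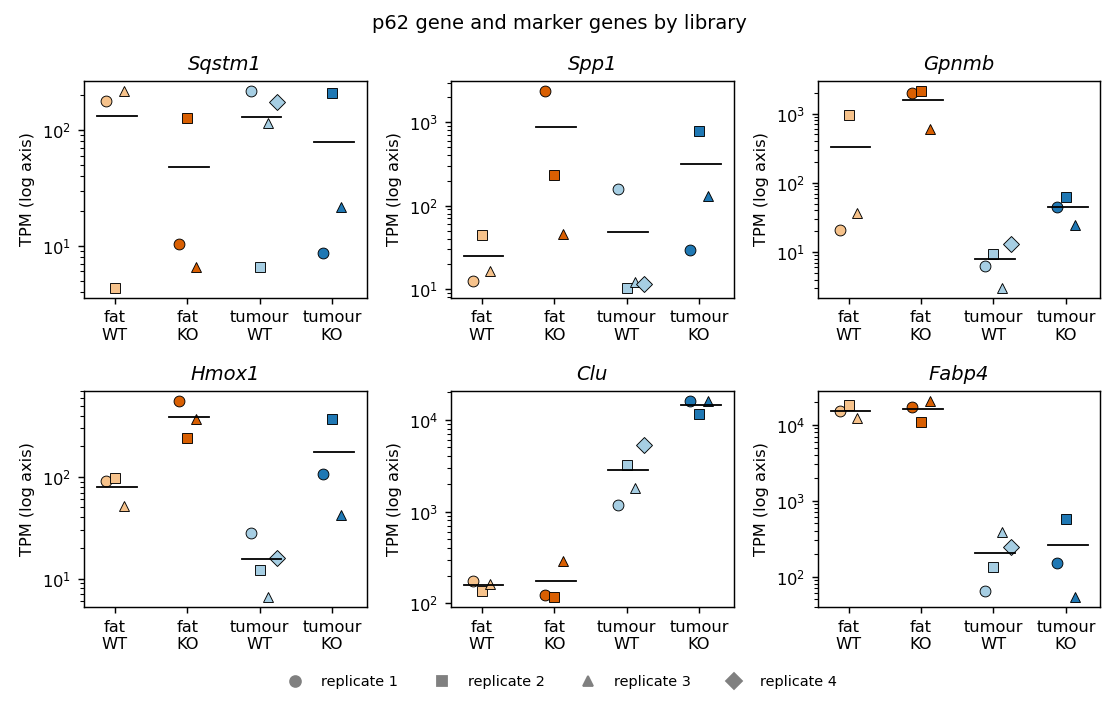
TPM of Sqstm1 and the 5 marker genes in all 13 libraries (log axes), by tissue and labelled genotype; symbols are libraries by replicate number and bars are group means. Fabp4 and Gpnmb separate knockout-labelled fat from tumour upward and Clu downward, and Spp1 and Hmox1 overlap. The Sqstm1 values of the libraries numbered 2 stand apart from the rest of their groups.

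Antigen presentation had the largest share of shared genes of the 30 lists, 10 of 16 (62.5%, against 28.1% of all genes). Among all genes with at least 10 TPM in all 6 libraries 62% were shared, near the share of this list. Of its genes 1 was called higher in fat and 0 in tumour, with a median gap of 0.17. B2m, the light chain of MHC class I, stood at 7718, 8828 and 9726 TPM in fat and at 12570, 15110 and 15120 TPM in tumour. The groups did not overlap, but the gap of -0.71 was under 2-fold. H2-K1, a class I heavy chain, stood at 1396, 2031 and 1504 TPM in fat and 1634, 3093 and 2128 TPM in tumour, and Cd74, the class II invariant chain, at 219, 1034 and 575 TPM in fat and 249.3, 771 and 477.5 TPM in tumour. Both overlapped between the tissues, and Cd74 was lowest in library 1 and highest in library 2 of each tissue. The peptide transporter genes Tap1 and Tap2, the loading factor Tapbp and the immunoproteasome genes Psmb8 and Psmb9 were shared as well. The exception was H2-Ab1, a class II chain, at 287, 1082 and 272 TPM in fat against 52.6, 158 and 113 TPM in tumour (gap 2.15), which was not called without fat 2 or without tumour 1.

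Of 17 macrophage genes 6 were called higher in fat (35.3%), 0 in tumour, 2 were shared (Cd14 and Fcer1g) and 9 met neither rule, with a median gap of 1.83. Lyz2, the lysozyme of myeloid cells, stood at 8837, 5587 and 4028 TPM in fat and at 647, 2650 and 450.4 TPM in tumour. Csf1r, the receptor for macrophage colony stimulating factor, stood at 480.5, 287 and 346 TPM in fat and at 47.9, 151 and 30.1 TPM in tumour. Neither gene overlapped between tissues, and in both tumour 2 was nearest to fat. The complement subunit gene C1qa, at 2402, 1008 and 964 TPM in fat and 225, 1014 and 226 TPM in tumour, overlapped through tumour 2 alone. Without tumour 2, 11 of 17 macrophage genes were called higher in fat, and without tumour 3 there were 4.

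Of the genes of lipid-associated macrophages, 12 of 18 were called higher in fat (66.7%, against 8.95% of all genes). Another 1 was called higher in tumour and 2 were shared (11.1%, against 28.1%), with a median gap of 3.11. Trem2, the lipid-sensing receptor of these cells, stood at 865, 528 and 153 TPM in fat and at 4.54, 33.7 and 8.52 TPM in tumour. Mmp12, the macrophage elastase, stood at 377.5, 486 and 127 TPM in fat and at 7.26, 3.11 and 2.32 TPM in tumour. These ranges did not overlap, and the gaps were 5.08 and 5.89. Atp6v0d2, a subunit of the lysosomal proton pump (gap 5.66), Fabp5, a fatty acid binding protein (5.34), and Plin2, a lipid droplet coat protein (4.20), were also called higher in fat. Lpl, lipoprotein lipase (5.54), is on this list and on the adipocyte list. Cd9, a tetraspanin that many epithelia also express, was called higher in tumour (gap -2.72). Ctsd, the lysosomal protease cathepsin D, was shared at 6784, 2116 and 1306 TPM in fat and 1300, 3006 and 2326 TPM in tumour, and so was Cstb, a cathepsin inhibitor.

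Gpnmb and Spp1 are both listed for lipid-associated macrophages but stood apart in the gap, and the 300 bases around their starts are shown for that contrast. Each runs 5′ to 3′ from 250 bases before to 50 after the annotated start, on the plus strand, from RefSeq on GRCm38.p6. The windows lie at chr6:49036268-49036567 for Gpnmb and chr5:104434861-104435160 for Spp1. Capitals mark matches, on either strand, to 4 motifs: the TATA box TATAAA, the AP-1 site TGANTCA, the E-box CACGTG and the PU.1 core GAGGAA.
Gpnmb: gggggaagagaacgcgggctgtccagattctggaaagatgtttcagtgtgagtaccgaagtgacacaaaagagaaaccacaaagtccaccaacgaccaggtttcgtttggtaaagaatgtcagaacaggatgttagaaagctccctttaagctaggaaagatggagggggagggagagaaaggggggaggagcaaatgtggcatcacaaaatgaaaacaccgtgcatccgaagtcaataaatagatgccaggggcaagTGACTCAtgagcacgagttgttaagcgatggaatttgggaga
Spp1: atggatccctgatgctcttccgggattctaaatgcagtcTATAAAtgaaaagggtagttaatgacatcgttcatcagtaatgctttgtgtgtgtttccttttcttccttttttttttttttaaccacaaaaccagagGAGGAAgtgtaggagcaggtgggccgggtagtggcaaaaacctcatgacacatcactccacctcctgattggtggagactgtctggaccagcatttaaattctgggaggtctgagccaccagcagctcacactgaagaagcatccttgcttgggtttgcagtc
The Gpnmb window held TGACTCA at base 9 of the RefSeq transcript, and the Spp1 window held TATAAA 211 and GAGGAA 113 bases before the RefSeq start. Both RefSeq starts lie shortly before the gene starts given above, and the Gpnmb match lies before the gene start given there. Of 32544 promoter windows of this length, 13.6% held the TATA box, 7.79% the AP-1 site, 7.17% the E-box and 28.1% the PU.1 core. These matches are letters in a window and no evidence of binding.

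Genes of tissue-resident macrophages showed a median gap of 1.82. Of 14 genes 3 were called higher in fat (21.4%, against 8.95% of all genes) and 3 were shared (21.4%, against 28.1%). Those called were Sepp1, which encodes a selenium transport protein, and the lectin genes Mgl2 and Cd209g. Sepp1 was not called without fat 1 or without tumour 3. Lyve1, a hyaluronan receptor, was shared at 179.5, 103 and 220.2 TPM in fat and 82.4, 265 and 51.9 TPM in tumour, as were the growth factor gene Gas6 and the scavenger receptor gene Stab1. Ccl8, a monocyte chemokine, was not called but reached 1429 TPM in tumour 2 against 98.4 and 54.5 TPM in tumours 1 and 3. Without tumour 2, 8 of 14 were called higher in fat.

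With all 6 libraries, calls of cytokine and chemokine genes did not pass the background. Of 26 genes 2 were called higher in fat (7.69%, against 8.95% of all genes) and 1 in tumour (3.85%, against 10.3%). Another 6 were shared (23.1%, against 28.1%), and the median gap was 0.62. The eosinophil chemokine Ccl11 stood at 155, 147 and 164 TPM in fat and 10.3, 84.1 and 19.03 TPM in tumour (gap 2.54). Ccl5, a T cell chemokine, stood at 1.22, 4.05 and 3.22 TPM in fat and 22.1, 31.5 and 33.3 TPM in tumour (gap -3.03). Both ranges were apart, but Ccl11 was not called without tumour 1. The shared genes were Cxcl12, Cxcl16, Tgfb1, Icam1, Socs3 and Nfkbia, which span stromal chemokines, adhesion and feedback inhibitors of cytokine signalling. The chemokine Ccl6 was the most abundant of the list, at 1123, 429 and 785 TPM in fat and 152, 849.6 and 55.0 TPM in tumour, and overlapped through tumour 2. Ccl21a was listed at 0 in all tumours and at 12.3, 71.1 and 0.00074 TPM in fat, and it has near-identical copies, so its call is uncertain. Without tumour 2, 6 of 26 were called higher in fat (23.1%, against 10.4% of all genes).

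Complement and acute phase genes had a median gap of 1.38, which was -0.30 without a minimum gene length. They held 3 calls in fat (Hp, Orm1 and C3ar1), 1 in tumour (Clu) and 3 shared genes (Serping1, Cfp and C2) of 16. Hp, which encodes the haemoglobin scavenger haptoglobin, stood at 4960, 3616 and 2916 TPM in fat and at 246.5, 1615 and 49.4 TPM in tumour. Tumour 2 was again nearest to fat, and without it 6 of 16 were called higher in fat, or 8 without both libraries numbered 2. Without tumour 3, 8 of 16 were shared (50%) and 3 were called higher in fat. The central component gene C3, at 1247, 914 and 1567 TPM in fat and 438, 887 and 235.5 TPM in tumour, did not overlap but had a gap of 1.43, under the 4-fold rule.

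Of 18 interferon response genes 3 were called higher in tumour (16.7%, against 10.3% of all genes), 0 in fat and 6 were shared, with a median gap of -1.45. Isg15, a ubiquitin-like modifier, stood at 32.6, 15.2 and 11.5 TPM in fat and at 99.7, 312 and 122 TPM in tumour. Ifit1 and Usp18 were the other 2, and Irf1, Ifit2, Ifit3, Gbp2 and Gbp3 were among the shared genes. Isg15 was highest in tumour 2 and its groups did not overlap. Without fat 1, 6 of 18 were called higher in tumour, and without tumour 3, 5. Without fat 2, without tumour 2 or without both, there were 2 (11.1%), near the share of all genes, and Usp18 was not called.

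Lymphocyte genes were low in both tissues, at 22.9 to 90.7 summed TPM in fat and 163 to 231.5 in tumour over the 17 genes tested. Of these, 4 were called higher in tumour (23.5%, against 10.3% of all genes), 0 in fat, and 0 were shared. They were Thy1, Nkg7, Klrd1 and Gzmb. Gzmb, the cytotoxic protease granzyme B, stood at 0.99, 0.61 and 1.31 TPM in fat and at 12.4, 14.97 and 35.1 TPM in tumour, with a gap of -3.34. The T cell receptor subunit gene Cd3e was at 0 to 0.86 TPM in fat and 1.19 to 2.17 TPM in tumour, and was not called. Thy1 is also expressed by fibroblasts and nerves.

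Endothelial genes were higher in fat in 11 of 18 cases (61.1%, against 8.95% of all genes) and higher in tumour in 0. Tie1, Esam and Eng were shared (16.7%, against 28.1%), and the median gap was 2.16. Pecam1, a junction protein of all vessels, stood at 161, 169 and 343 TPM in fat and at 24.4, 54.3 and 21.7 TPM in tumour. Gpihbp1, which holds lipoprotein lipase on capillaries, stood at 339, 198 and 522 TPM in fat and at 10.6, 26.0 and 11.5 TPM in tumour, the largest gap of the list (4.38). Neither overlapped. Without tumour 1, 6 of 18 were called. Of the lymphatic genes, Pdpn, Mmrn1 and Lyve1 were shared and Ccl21a was the only 1 of 7 called, while without tumour 2 the shared genes were 1. Prox1, the lymphatic regulator, was at 1.23 to 6.52 TPM in fat and 0.094 to 0.94 TPM in tumour.

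Fibroblast and matrix genes were shared in 8 of 21 cases (38.1%, against 28.1% of all genes). They were higher in fat in 4 (19%, against 8.95%) and in tumour in 0. The median gap of 1.21 became -0.42 without a minimum gene length. The shared genes were the fibrillar collagens Col1a1, Col1a2, Col5a1 and Col5a2, with Col6a1, Fn1, Lum and Loxl1. Col1a2 stood at 214, 333 and 141 TPM in fat and at 146, 699.5 and 78.5 TPM in tumour, and Lum, which encodes the collagen-binding proteoglycan lumican, at 187, 224 and 147.5 TPM in fat and 176, 287 and 183 TPM in tumour. Both overlapped, and library 2 was the highest of each tissue. The genes called higher in fat were the fibroblast receptor Pdgfra (273, 144 and 180 TPM against 27.9, 40.6 and 27.9 TPM), Pdgfrb, Postn and Dpt. Only Pdgfra kept its call without any 1 library: Dpt lost it without fat 2, tumour 1 or tumour 3, Postn without fat 2 and Pdgfrb without tumour 3. Without tumour 2, 10 of 21 were called higher in fat and 5 were shared, whereas without tumour 3, 2 were called and 11 were shared.

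Of 12 basement membrane genes 3 were called higher in fat, 1 in tumour (8.33%, against 10.3% of all genes) and 4 were shared. The laminin chains Lama4 (gap 3.19) and Lamb1 (3.56) and the linker Nid1 (2.58) were called higher in fat, and Lama5, a laminin chain abundant under epithelia, higher in tumour at 110, 179.5 and 99.4 TPM against 2.91, 3.88 and 9.39 TPM in fat. Lamb2, Lamc1, Col15a1 and Col18a1 were shared, and without tumour 3 the shared genes were 7. The list median of 1.03 became -0.57 without a minimum gene length.

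Contractile genes of smooth muscle were the stromal genes that parted to the side of tumour, with 9 of 14 called there and a median gap of -3.24. Acta2, smooth muscle actin, stood at 31.7, 102 and 104 TPM in fat and at 2429, 3074 and 4931 TPM in tumour. Cnn1, which encodes the actin-binding calponin, stood at 3.60, 12.6 and 6.54 TPM in fat and at 619.6, 411 and 514.5 TPM in tumour. All tumours lay above all fat libraries for both. The pericyte gene Rgs5 went the other way, at 53.0, 96.9 and 111.5 TPM in fat against 14.6, 39.1 and 7.91 TPM in tumour (gap 2.25), a call it lost without tumour 3, and Kcnj8, a pericyte potassium channel gene, was shared. Of 7 mesothelial genes, Upk3b and Lrrn4 were called higher in fat and Krt19 and Upk1b, which epithelia also express, higher in tumour. Without fat 2, 4 of the 7 were called higher in fat, and without tumour 3, 2 were shared in place of 0.

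**Figure D3:**
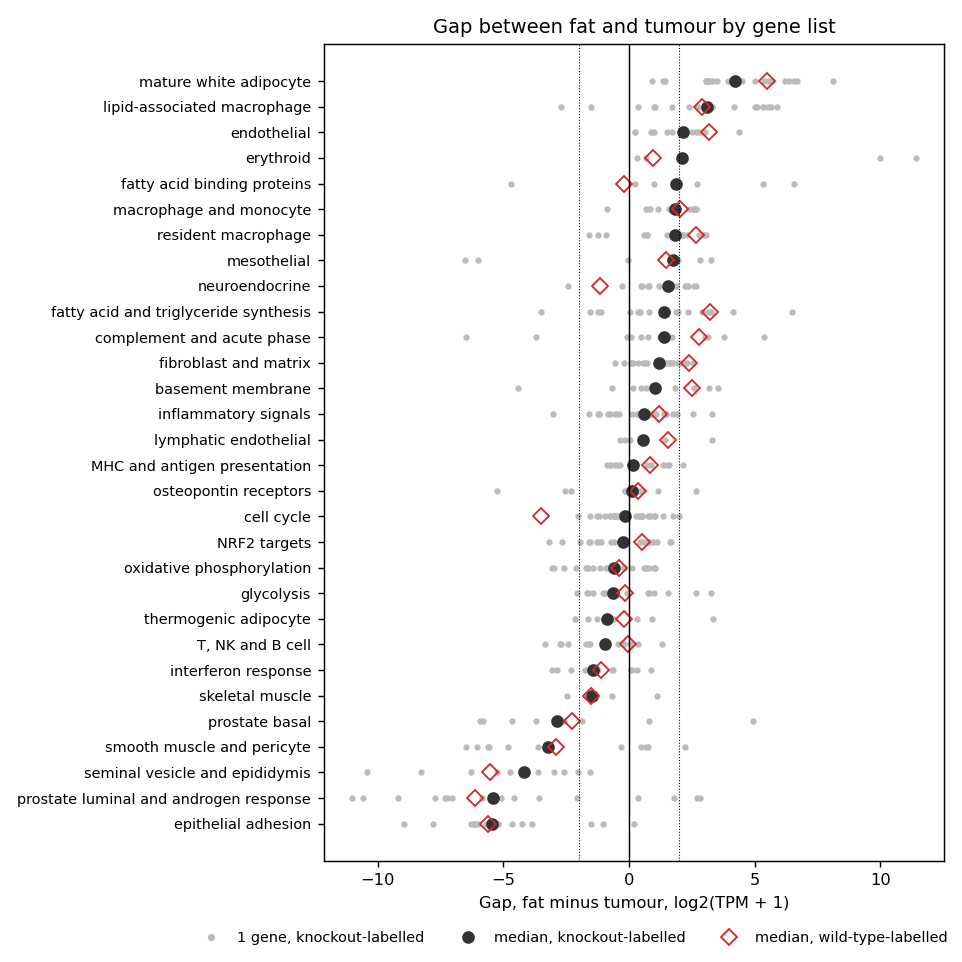
Gap between fat and tumour (log2, fat minus tumour) for every gene of the 30 lists (grey dots), with list medians in knockout-labelled (filled circles) and wild-type-labelled hosts (open diamonds); dotted lines mark a gap of 2 either way. Medians in knockout-labelled hosts run from -5.46 for epithelial adhesion to 4.22 for mature adipocytes; of the medians of at least 1 to the side of fat, those of the fibroblast, basement membrane, complement and lipid synthesis lists turn negative without a minimum gene length. The cell cycle list has the widest step between the genotypes.

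Adipocyte genes were the clearest mark of fat, with 19 of 23 called there, 0 in tumour and 0 shared (2 without fat 3). Adipoq, which encodes the hormone adiponectin, stood at 4355, 3771 and 4586 TPM in fat and at 34.3, 258 and 13.4 TPM in tumour. Plin1, the coat protein of adipocyte lipid droplets, stood at 373, 691 and 802 TPM in fat and at 5.74, 10.9 and 1.29 TPM in tumour. No value overlapped, and the gaps were 6.38 and 6.70. The 4 genes not called were Cidea, Slc2a4, Pnpla2 and Cfd, and Cfd, the adipsin gene, reached 1683 TPM in tumour 2, above the 1147 TPM of fat 2.

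Of 20 lipid synthesis genes 7 were called higher in fat (35%, against 8.95% of all genes) and 1 in tumour. Another 4 were shared (20%, against 28.1%). The median gap of 1.41 became -0.06 without a minimum gene length. Scd1, the desaturase of adipose tissue, stood at 3655, 1750 and 16110 TPM in fat and at 202, 543 and 162 TPM in tumour, whereas its relative Scd2 stood at 17.6, 75.4 and 35.8 TPM in fat and 393, 489.8 and 397 TPM in tumour. Both pairs of ranges were apart, in opposite directions (gaps 4.16 and -3.51). Fasn, the fatty acid synthase, was shared at 18.3, 86.5 and 134 TPM in fat and 44.3, 80.8 and 57.6 TPM in tumour, with a gap of 0.02. In wild-type-labelled hosts the list median was 3.22.

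Of the fatty acid binding proteins, Fabp4, Fabp5 and Fabp7 were called higher in fat and Fabp6, the ileal bile acid binding protein, higher in tumour. Fabp6 stood at 0, 0 and 6.88 TPM in fat and at 16.9, 82.5 and 87.3 TPM in tumour. Fabp3 and Fabp9 overlapped, and Fabp1, Fabp2 and Fabp12 were under 1 TPM on average in both tissues. Of the receptors for osteopontin, the integrin genes Itgb1, Itgb5 and Itgav and the hyaluronan receptor gene Cd44 were shared. Itgb1 stood at 556, 538 and 519.9 TPM in fat and 543, 768 and 520.1 TPM in tumour, a gap of -0.16. Itga4, an integrin of leukocytes, was called higher in fat, and Itga5, Itga8 and the epithelial integrin gene Itgb6 higher in tumour, while Itgb3 and Itga9 met neither rule. Itga5 was not called without tumour 2.

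Epithelial genes were the clearest mark of tumour. Of 16 adhesion genes 13 were called there and 0 in fat, with a median gap of -5.46, and of 17 luminal and androgen response genes 13 were called higher in tumour and 2 in fat. Cdh1, which encodes E-cadherin, stood at 1.62, 4.79 and 0 TPM in fat and at 514, 571 and 582 TPM in tumour. Krt8 and Krt18, the keratins of luminal cells, had gaps of -5.10 and -5.83, and the basal keratin genes Krt5 and Krt15 were listed at 0 in every fat library and at 39.0 to 94.4 TPM in tumours. Steap4, a metalloreductase, and Nupr1, a stress-induced nuclear protein, were the luminal list genes called higher in fat, and Fkbp5, a glucocorticoid- and androgen-induced chaperone, was shared. Among 9 basal genes 6 were called higher in tumour, and Dst, a large cytolinker gene, higher in fat.

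The protein coding genes with the largest gaps to the side of tumour were Mmp7, Defb50, 9530002B09Rik, Pbsn, Svs4, 9530053A07Rik, Pigr, Tgm4, Cldn4, Tspan8, Agr2 and Cldn8. Mmp7, the matrix protease matrilysin (chromosome 9, 7692090 to 7699585, plus strand), stood at 13610, 14000 and 14190 TPM in tumour and was listed at 0, 0.658 and 0 TPM in fat. Pigr, which carries immunoglobulins across epithelia, stood at 569, 1755 and 2367 TPM in tumour and at 0.11 to 1.02 TPM in fat, and Cldn4, a tight junction claudin, at 756.5, 521 and 765 TPM in tumour and 1.498, 0 and 0 TPM in fat. Mmp7 was even across the tumours, whereas Svs4, a seminal vesicle secretory protein gene, ran from 120800 TPM in tumour 1 to 26.3 TPM in tumour 2 and 796 TPM in tumour 3. Of the 10 seminal vesicle genes, 8 were called higher in tumour (6 without tumour 1), and this family holds near-identical genes whose reads can be shared.

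Pbsn, which encodes the androgen-regulated prostate secretory protein probasin (chromosome X, 77837901 to 77853623, minus strand), was listed at 0 in every fat library and stood at 7562, 394 and 1214 TPM in tumour. Tumour 2 was the lowest. The TRAMP transgene uses the rat counterpart of this promoter, and the mouse sequence is shown for that reason, 5′ to 3′ on the minus strand at chrX:77853451-77853750, with the same motifs in capitals.
Pbsn: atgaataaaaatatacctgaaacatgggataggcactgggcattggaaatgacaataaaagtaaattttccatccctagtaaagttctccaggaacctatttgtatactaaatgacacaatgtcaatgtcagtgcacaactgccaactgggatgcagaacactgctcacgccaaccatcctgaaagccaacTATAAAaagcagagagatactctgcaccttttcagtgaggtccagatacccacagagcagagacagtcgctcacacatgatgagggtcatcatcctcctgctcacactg
It held TATAAA 59 bases before the RefSeq start, which lies inside the gene span given above, and so did the match. The transgene itself was not analysed here.

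Neuroendocrine genes were low, with summed levels of 88.1 to 462 TPM in fat and 46.7 to 70.3 TPM in tumour. Of 17 genes 3 were called higher in fat (17.6%, against 8.95% of all genes) and 1 in tumour (5.88%, against 10.3%). Chga, which encodes chromogranin A, was at 15.3, 117 and 0.947 TPM in fat and 1.06, 2.64 and 1.21 TPM in tumour, and Syp, synaptophysin, at 7.75, 36.7 and 11.4 TPM in fat and 1.46, 1.51 and 1.52 TPM in tumour. Chga overlapped and Syp did not, and fat 2 was highest for both. Without fat 2 the list median went from 1.54 to 0.67, and without fat 3 it was 2.08 with 9 of 17 called. Thermogenic genes were low as well: Ucp1, the uncoupling protein of brown fat, was at 0, 4.83 and 0 TPM in fat and at 12.9, 0.141 and 0.29 TPM in tumour, and of 9 genes 1 was called in each direction.

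**Figure D4:**
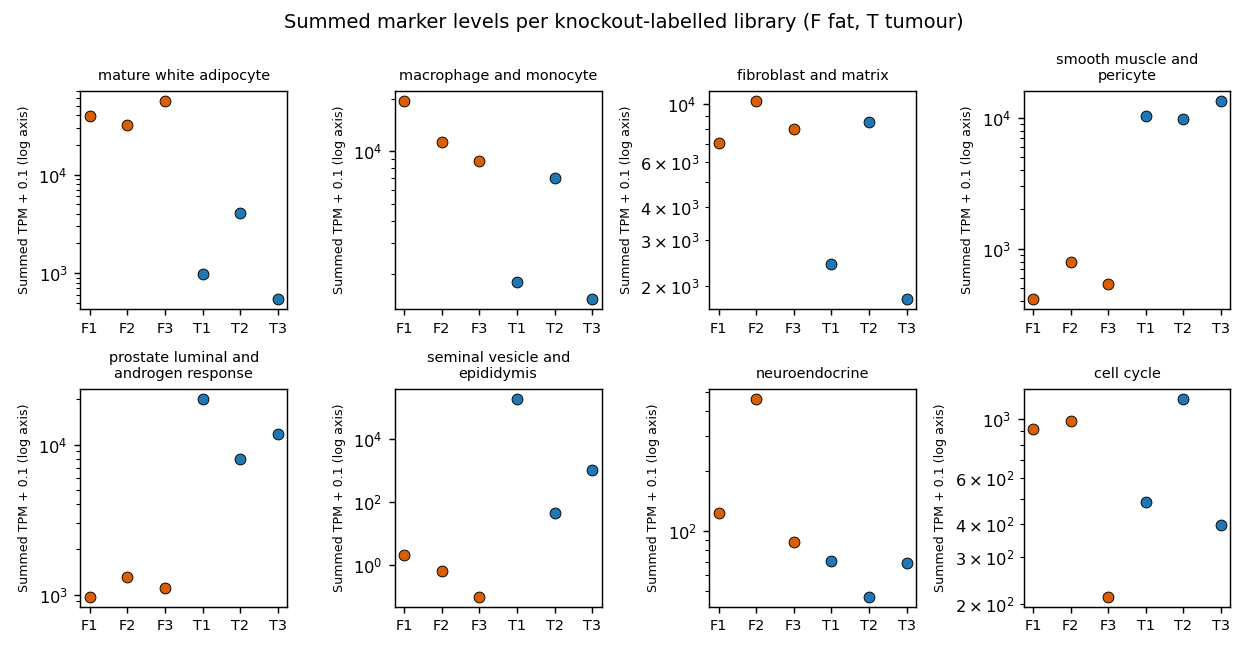
Summed TPM plus 0.1 of 8 marker lists in each knockout-labelled library (log axes), fat in orange and tumour in blue. Tumour 2 stands above tumours 1 and 3 for adipocyte, macrophage and fibroblast genes, tumour 1 for seminal vesicle genes and fat 2 above fat 1 and 3 for neuroendocrine genes.

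The protein coding genes with the largest gaps to the side of fat were Hba-a1 and Hba-a2 and 10 replication-dependent histone genes, Hist2h2aa1, Hist1h4d, Hist2h2ac, Hist2h2bb, Hist1h4j, Hist1h2bb, Hist1h4b, Hist1h2ap, Hist1h4c and Hist1h4n. Most mRNAs of such histones end in a stem-loop and carry no poly(A) tail. In a list put together after these values were seen, 62 of 66 were called higher in fat (against 8.95% of all genes), with a median gap of 6.74. In wild-type-labelled hosts the median was 4.75, with 56 called (against 11.2% of all genes). Most of the 66 were under 1 TPM on average in tumour. They passed the minimum level through fat alone, which by itself favours calls to that side. The summed level of the 66 was 16810, 41250 and 8343 TPM in fat and 144, 129 and 155 TPM in tumour. By contrast, 6 histone variant genes, whose mRNAs have tails, had a median gap of -1.51. Another 4 RNAs, of RNA polymerase III and of the nucleus, summed to 103600 to 177300 TPM in fat and 1220 to 2357 TPM in tumour. Most of the fat sum was 1 gene, Rpph1, at 92250, 167000 and 94550 TPM in fat and 3.55 to 12.4 TPM in tumour. Of the 4, 2 were called higher in fat. The labels give poly(A) selection for both tissues, and the part of library preparation or counting in these differences was not tested. Hba-a1, an alpha globin gene of red cells, stood at 5945, 1077 and 3322 TPM in fat and was listed at 0 in every tumour, where the heme synthesis gene Alas2 was at 10.6 to 64.4 TPM. The globin pair and many histone genes are near-identical copies, so their levels are uncertain.

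Past the globins and histones, in an order taken after the values were seen, the genes with the largest gaps to the side of fat included Nnat, Lep, Peg3 and Pck1. Lep, which encodes the adipocyte hormone leptin, stood at 388.5, 1860 and 926.5 TPM in fat and at 6.75, 2.24 and 0.283 TPM in tumour. Pck1, the gluconeogenic and glyceroneogenic enzyme PEPCK, stood at 1852, 669 and 5224 TPM in fat and at 26.4, 31.1 and 4.80 TPM in tumour. The groups were apart for both, and fat 3 was highest for Pck1 and fat 2 for Lep. The imprinted genes Nnat and Peg3 had gaps of 8.23 and 7.02. G6pd2, Gm5148 and Aldoart1 were also among the first 12, and G6pd2 and Aldoart1 are retrocopies of expressed genes that can take up their reads.

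Genes of central metabolism were more often shared than called, as were all genes (28.1% shared, 19.3% called). Of all genes with at least 10 TPM in all 6 libraries, 62% were shared. Of 26 oxidative phosphorylation genes 13 were shared (50%), 4 were called higher in tumour (15.4%, against 10.3% of all genes) and 0 in fat. The median gap was -0.61. Over all genes the median was -0.41 at 300 to 1687 bases and -0.54 at 1690 to 2530 bases. Atp5a1, a subunit of ATP synthase, stood at 780.1, 707 and 552 TPM in fat and 628, 850.5 and 886.5 TPM in tumour, and overlapped. The 4 called, Ndufa1, Ndufa4, Cox6a1 and Cox7a2, are small subunits of the respiratory chain, and Ndufa4 was not called without fat 2. Of 18 glycolysis genes 8 were shared, with Ldha, lactate dehydrogenase A, at 436.5, 433 and 320.0 TPM in fat and 325, 554 and 400.1 TPM in tumour. Eno1 was called higher in fat but listed at 0 in every tumour, and its near-identical copies make this uncertain. Of 21 NRF2 target genes 8 were shared and 2, the glutathione transferase genes Gsta4 and Gstp1, were called higher in tumour (4 without tumour 2), and tumour 1 was highest of the tumours for Nqo1 (76.7 TPM against 10.9 and 14.0).

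Whether the gap between tissues differed between knockout-labelled and wild-type-labelled hosts was tested with limma on all 13 libraries, as the gap in the first minus that in the second. Of 16476 genes, 0 passed an adjusted p of 0.05 (0%), the smallest being 0.0913, and 1529 had an unadjusted p under 0.05 (9.28%, where 824 would be 5%). The labels do not say that libraries came from separate mice, so the p-values reflect the spread among libraries, which may be technical. Leaving out fat library 3 labelled knockout gave 110 calls, leaving out tumour 2 labelled knockout gave 3, leaving out any 1 of the wild-type-labelled fat libraries gave 1, and array weights gave 504. Without the 4 libraries numbered 2, whose Sqstm1 stood apart from the rest of their groups, 0 passed. The smallest limma adjusted p was then 0.29, and 992 had an unadjusted p under 0.05.

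Cell cycle genes were the list with the largest share of small p-values. All 30 had an unadjusted limma p under 0.05 (against 9.28% of all genes), with a gap further to the side of fat in knockout-labelled hosts. Their adjusted p-values by limma ran from 0.0913 to 0.46, so none passed. The list was chosen with earlier results of these data known. The median gap was -0.16 in knockout-labelled and -3.51 in wild-type-labelled hosts. Between the tissues of knockout-labelled hosts 0 of the 30 were called higher in fat, 1 in tumour and 2 were shared, and without fat 3, 4 were called higher in fat and 5 were shared. Mki67, the proliferation marker Ki-67, stood at 115, 192 and 14.9 TPM in knockout-labelled fat and 22.4, 43.9 and 6.46 TPM in wild-type-labelled fat. In tumour Mki67 stood at 20.04, 39.1 and 5.95 TPM in knockout-labelled libraries and 452, 145, 59.5 and 127 TPM in wild-type-labelled ones. The tumour groups did not overlap and the fat groups did, knockout-labelled fat 3 lying below wild-type-labelled fat 1 and 2. Wild-type-labelled tumour 1, the highest for Mki67, also had 3073 summed TPM of neuroendocrine genes against 34.5 to 62.8 TPM in the other wild-type-labelled tumours, and the part of this library in the result was not tested. Leaving it out gave 0 calls, as did the test on all 13 libraries, so that count cannot show the part of this library.

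The genes with the smallest p-values and a gap further to the side of fat in knockout-labelled hosts were Hist3h2ba, Hmgb2, Spc24, Syce2, Nek2 and H2afx, each at a limma adjusted p of 0.0913. Hmgb2, a chromatin protein of dividing cells, stood at 22.7, 27.0 and 37.7 TPM in knockout-labelled fat and 10.5, 15.6 and 11.5 TPM in wild-type-labelled fat. In tumour Hmgb2 stood at 67.5, 94.6 and 55.1 TPM against 270.0, 176, 399 and 182 TPM. Both tissues parted by label, in opposite directions, and the gap difference was 2.90 (SE 0.47). The mitotic kinase gene Nek2 and the kinetochore gene Spc24 differed by 4.48 (SE 0.79) and 4.12 (SE 0.67).

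In the other direction stood Tmem45b, Snhg3, Ppp1r3c, Me1, Chpt1 and 1500017E21Rik, also at a limma adjusted p of 0.0913. Me1, the malic enzyme that supplies NADPH for fatty acid synthesis, stood at 9.07, 22.3 and 40.96 TPM in knockout-labelled fat and 238, 185 and 244 TPM in wild-type-labelled fat. In tumour Me1 stood at 62.5, 55.4 and 35.9 TPM against 40.8, 56.9, 76.0 and 50.6 TPM. Only the fat groups were apart, and the gap difference was -3.24 (SE 0.58). Chpt1, which makes phosphatidylcholine, and Ppp1r3c, a glycogen-targeting phosphatase subunit gene, differed by -1.997 (SE 0.37) and -2.84 (SE 0.49). By list, an unadjusted limma p under 0.05 was found for 10 of 20 lipid synthesis, 9 of 23 adipocyte and 9 of 16 complement genes. These are 50%, 39.1% and 56.2%, against 9.28% of all genes, all with a gap further to the side of tumour in knockout-labelled hosts. Macrophage, lipid-associated macrophage and epithelial adhesion genes had 0 of 17, 0 of 18 and 0 of 16 at that level. At the share of all genes, lists of this size would hold few.

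**Figure D5:**
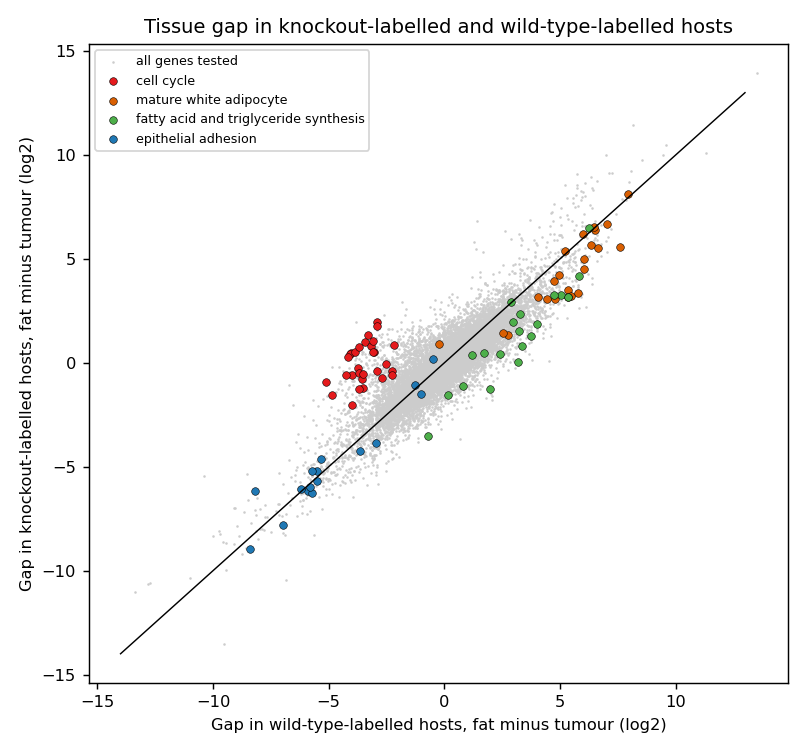
Gap between fat and tumour (log2, fat minus tumour) in wild-type-labelled (x axis) and knockout-labelled hosts (y axis) for every gene tested; the line marks equal gaps. All 30 cell cycle genes lie above the line, and adipocyte and lipid synthesis genes lie mostly below it.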

How the data were processed

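Per the labels' protocols, polyadenylated RNA was selected from frozen tissue and libraries made with a directional kit were read as single reads of 75 bases. Tools named in the submitters' processing notes are STAR and DESeq2, with the build mm10; their roles and versions, the counter and the gene models were not given in the sources used here. Tumour values, as deposited, are raw read counts per gene, judged from the values. The deposited fat table names no unit and was read as FPKM from its values, with library totals of 1.11e+06 to 2.11e+06; whether the authors scaled it between libraries is not given in the sources used here.

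Symbols were matched to GENCODE M21 (22264 of 22615, 604 by synonym), and 21497 genes of at least 300 bases were kept. These held 20.8 to 39.1% of the fat FPKM and 97.6 to 97.8% of the tumour counts. Symbols turned into dates (27 in fat, 13 in tumour) are not named. Tumour counts were divided by union exon length, and both tables were rescaled to 1000000 per library. Gaps are on the log2(TPM + 1) scale and so understate differences of low genes. Fat depth came from the step of low values, of which 64.5 to 68.9% lay within 0.15 of a whole read, so it is approximate. Counts and FPKM do not share a count model. The gap of knockout hosts against that of wild-type hosts was therefore tested with limma 3.58.1 (with trend, R 4.3.3, and edgeR 4.0.16 for TMM) on 16476 genes. P-values were two-sided, with Benjamini-Hochberg adjustment. The call rule and this test were also run on simulated data, with the same added spread for every gene. Real data are less even, so those runs do not show how the rules fare here. The rule for shared genes was not simulated. Whether counting used strand is not given in the sources used here, so overlapping and antisense genes are uncertain.

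The members and the 30 gene lists were chosen with earlier results of these data known. Genes were named by rule: Sqstm1, the 5 markers, the 12 coding genes with the largest gap each way, the 15 most abundant shared and 10 most parted stromal genes each way, up to 5 most abundant members per list, the 6 smallest p-values each way, and all fatty acid binding proteins and osteopontin receptors; other genes named were chosen after their values were seen. List members that the files did not match to the annotation are not counted. Some genes are not reported here.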

Additional observations from a re-analysis of the deposited data

Results flagged for a closer look

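Of 36 values examined for a library far from the other 3 in the wild-type-labelled tumours, 4 stood out. Chance alone sets apart about 1 in 20 where values are normally distributed. TPM was taken without logs and most of the 4 came from the same library, so that rate may not hold here. Spp1 was at 159.6 TPM in wild-type-labelled tumour 1 and at 10.3 to 11.9 TPM in the others. Neuroendocrine genes summed to 3073 TPM in that library, against 34.5 to 62.8 TPM, and erythroid genes to 51.88 TPM, against 14.8 to 19.7 TPM. Thermogenic genes summed to 766.6 TPM in wild-type-labelled tumour 3, against 74.1 to 164.5 TPM in the others. Groups of 3 libraries, which the knockout-labelled groups are, were not examined in this way.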

How the results depend on the processing

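The 1357 genes called higher in fat and 1568 called higher in tumour stayed within 1.5 times under percentile ranks, median centring, TMM, a pseudocount of 0.1 TPM, mean transcript length, no filter on low values, removal of the length trend, coding genes only and leaving out any library. Without a minimum gene length they were 436 and 5517, with 1075 shared genes and 2 and 16 lists past a median of 1 to the side of fat and tumour, against 13 and 7; short genes then enter the rescaling. The list medians of basement membrane (-0.57), complement (-0.30), lipid synthesis (-0.061) and fibroblast genes (-0.42) turned negative there. A minimum gap of 1 gave 2996 and 3910, and no minimum gap 4046 and 5193, since the rule is looser. On within-library percentile ranks, with a gap of 25 points for calls and lists, and shared genes within 10 points and above percentile 50 in all libraries, 2782 genes were shared and 4 and 4 lists passed; the rule itself differs there. The length trend and coding-only settings were chosen after seeing the data.

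The test of knockout against wild-type gap called 0 genes, 504 with array weights, 1 without a minimum gene length, and 0 to 110 with 1 library left out; the cause was not tested. With the replicate block it called 0 genes, with 1312 at an unadjusted p under 0.05. Deviations of same-numbered fat and tumour libraries correlated at -0.119, 0.0816 and -0.0224 in knockout-labelled and 0.0461, 0.0267 and -0.0311 in wild-type-labelled hosts. None was over 0.1, but libraries of different numbers reached 0.18. These correlations between tissues therefore cannot show whether equal numbers stand for the same mouse. The labels do not say what a number stands for, and the numbers were not taken as pairs. In all 4 groups Sqstm1 of the library numbered 2 stood apart from the rest, which in fat went against the label. Unknown exact depth of fat limits its low values.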
